A study of Mus musculus with 30 samples.

Results

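Imprinted genes are expressed mainly from the copy inherited from one parent. Here 36 mouse imprinted genes were followed in cultured fetal testes exposed to a phthalate metabolite, a retinoid or both. The genes were chosen by symbol from the 49315 Ensembl genes in the count files, with earlier results of these data known. All 36 passed the filter on low counts that left 19323 genes for testing, so none was lost to low expression. The RNA came from inbred C57BL/6 fetuses and was read as a sum over both parental copies, so the measurements give the total level of each gene and not the allele it came from.

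Imprinted genes lie in clusters, here called domains, in which a differentially methylated control region acts on several neighbours. Typical domains pair growth-promoting genes expressed from the paternal copy, such as Igf2, with long noncoding RNAs or growth restrictors expressed from the maternal copy, such as H19 and Cdkn1c. Many of these genes are highly expressed in fetal mesenchyme and decline after birth. In the fetal testis, male germ cells carry few of these methylation marks around the stage studied while somatic cells keep them.

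Fetuses were C57BL/6 mice of gestational day 14, and their testes were cultured without the mesonephros for 24 h, with DMSO as the vehicle. The groups were vehicle alone (n = 15), 100 µM mono-(2-ethylhexyl) phthalate (MEHP, the hydrolysis product of a common plasticizer; n = 6), 1 µM all-trans retinoic acid (ATRA, the active form of vitamin A; n = 5), and MEHP + ATRA at those doses (n = 4). Sample titles carry a second number of unstated meaning, from 416 to 465 in a lower range and from 525 to 599 in an upper range. All MEHP libraries lay in the upper range, all ATRA and MEHP + ATRA libraries in the lower range, and vehicle libraries in both (9 lower, 6 upper). A range term in the fit therefore compared treated and vehicle libraries within one range, and vehicle values are given by range. Titles also carry a first number of unstated meaning, which treated and vehicle libraries of the same range share. It was left out of the main fit and used as a block in an alternative. Which animal or litter a library came from is not in the labels, and the p-values cover only the variation among these libraries, which may be partly technical.

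Library totals ran from 17551454 to 29306917 counts. Levels are CPM (counts scaled to library size) after TMM scaling, and differences are log2 fold changes ± SE from an edgeR quasi-likelihood fit with Benjamini-Hochberg adjustment over all genes tested. A gene was said to rise or fall where its adjusted p was below 0.05. The 3 comparisons with vehicle share control libraries and are not independent of each other. These are whole-organ samples, in which fewer cells of a type and less RNA per cell cannot be told apart.

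ATRA changed 15 of the 36 imprinted genes, 8 up and 7 down. Among all genes tested, 18.1% passed in this comparison, 9.06% up and 9.03% down. MEHP + ATRA changed 19 of 36, 10 up and 9 down, against 29% of all genes, 14.3% up and 14.7% down. MEHP alone raised 1 gene, Mest, and lowered 0 by this test, against 4.72% of all genes, 2.88% up and 1.84% down; 8 of 36 members had an unadjusted p below 0.05, as had 2865 of the 19323 genes tested. The median log2 difference over the 36 genes was 0.04 for MEHP, 0.07 for ATRA and 0.10 for MEHP + ATRA, beside −0.01, −0.00 and −0.01 over all genes. The list therefore did not move one way as a whole: risers and fallers were about equal in number. Genes of the Dlk1-Dio3 domain other than Dio3 fell, the 3 genes of the Peg3 domain rose, the Kcnq1 domain held both risers and a faller with MEHP + ATRA, and Mest had the largest rise of the 36 with ATRA and with MEHP + ATRA.

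**Figure D1:**
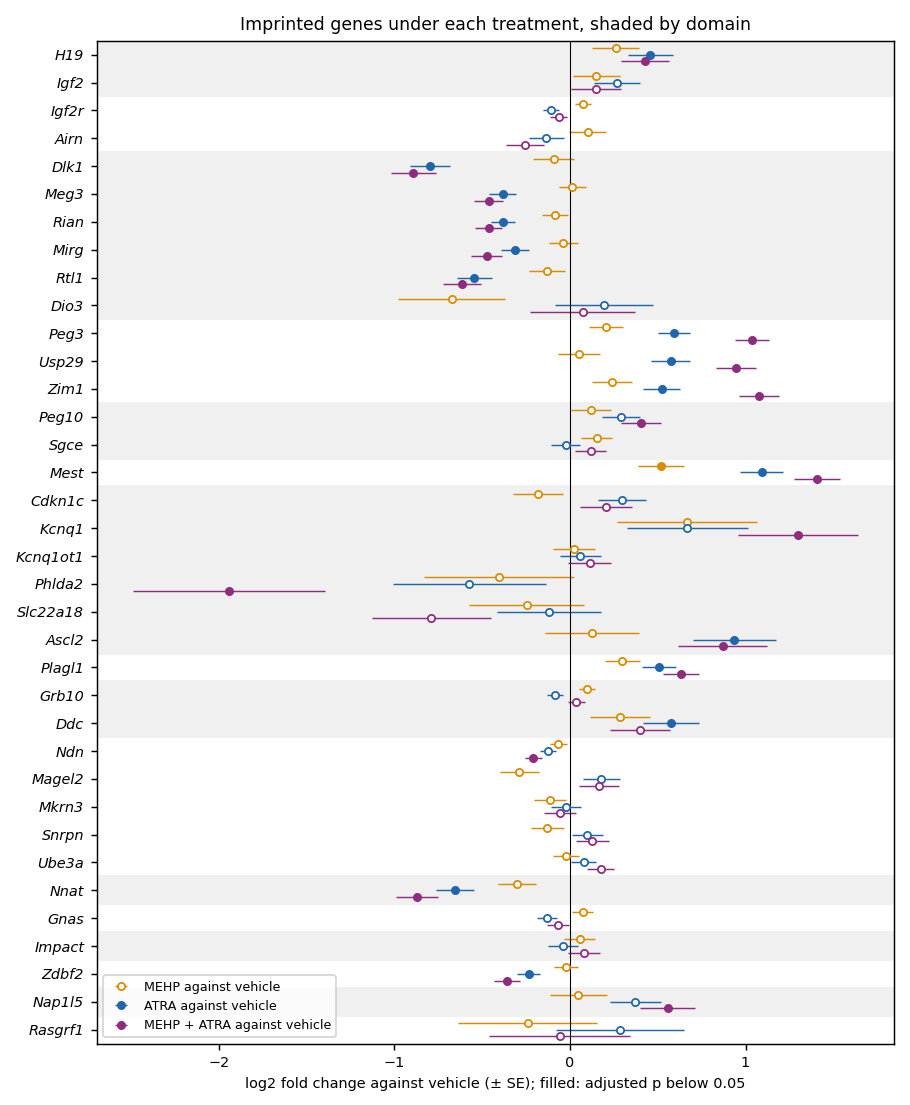
Log2 fold change against vehicle (x axis, ± SE) of each of the 36 imprinted genes, shaded by domain, for MEHP, ATRA and MEHP + ATRA; filled points have an adjusted p below 0.05. The Dlk1-Dio3 genes except Dio3 sit left of zero with ATRA and MEHP + ATRA, the 3 Peg3-domain genes and Mest sit right of it, and only Mest is filled for MEHP.

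Groups that did not overlap with the vehicle libraries of their range gave a like picture. With ATRA, 6 members lay wholly above and 4 wholly below vehicle, where 9.49% of all genes were apart in either direction, 4.95% above and 4.54% below. For MEHP + ATRA the counts were 7 above and 8 below, where 17.6% of all genes were apart, 9.14% above and 8.5% below. None of the 36 was apart in the MEHP libraries, where the share over all genes was 1.84%.

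Markers of other cell types moved in the same libraries. The summed level of 12 interstitial progenitor markers was 7237 to 7698 CPM in vehicle of the lower range, 5152 to 5965 CPM with ATRA and 4915 to 5348 CPM with MEHP + ATRA, without overlap. Of the 12, 5 fell with ATRA, among them Pdgfra and Lhx9, and 1, Nr2f1, rose. In the upper range the same sum was 7095 to 7987 CPM in vehicle and 6200 to 7212 CPM with MEHP. The Sertoli list of 12 had 7 members up and 1 (Amh) down with ATRA, though its summed level of 2429 to 2837 CPM lay within the vehicle range of 1930 to 2882 CPM. Germ cell sums overlapped, with medians of 1107 CPM in vehicle of the lower range, 1083 CPM with ATRA and 859 CPM with MEHP + ATRA. With MEHP alone 4 Sertoli markers rose and 1 fell, and 4 of 10 endothelial markers rose. No marker of the interstitial, Sertoli and germ cell lists was at 0 in any library. Summed markers of fetal Leydig cells, peritubular myoid cells, endothelium, macrophages, erythroid cells and mesonephros overlapped between vehicle and each treatment of the same range. The part that cell composition plays in the imprinted-gene differences was not tested.

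In vehicle cultures the 36 genes spanned a wide range of levels. Compared per kb of exon in the 9 lower-range vehicle libraries, H19 was the highest at 528 ± 65.7 CPM per kb (SD, n = 9), clear of the next gene by more than both SDs. H19 is a maternally expressed long noncoding RNA abundant in fetal tissue. Behind it came Dlk1 (89.0), Igf2 (85.8), Mest (84.4), Cdkn1c (78.1) and Grb10 (77.2 CPM per kb), neighbours in the order that overlapped within 1 SD. Peg3 (67.0) and Nnat (63.5) formed the next overlapping pair, then Gnas (51.8) and Meg3 (46.8 CPM per kb). Kcnq1ot1 (0.387), Rasgrf1 (0.235) and Kcnq1 (0.0793 CPM per kb) closed the list, and these last 3 were each separate from their neighbours. Together the 36 genes took 0.762% of counts in vehicle of the lower range, 0.859% with ATRA and 0.931% with MEHP + ATRA. Their summed level was 6940 to 8209 CPM in lower-range vehicle, 8250 to 8990 CPM with ATRA and 9174 to 9502 CPM with MEHP + ATRA, so the 3 groups did not overlap. In the upper range, vehicle (6541 to 8274 CPM) and MEHP (6978 to 9003 CPM) overlapped. Peg3, H19 and Mest are large terms in that sum.

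**Figure D2:**
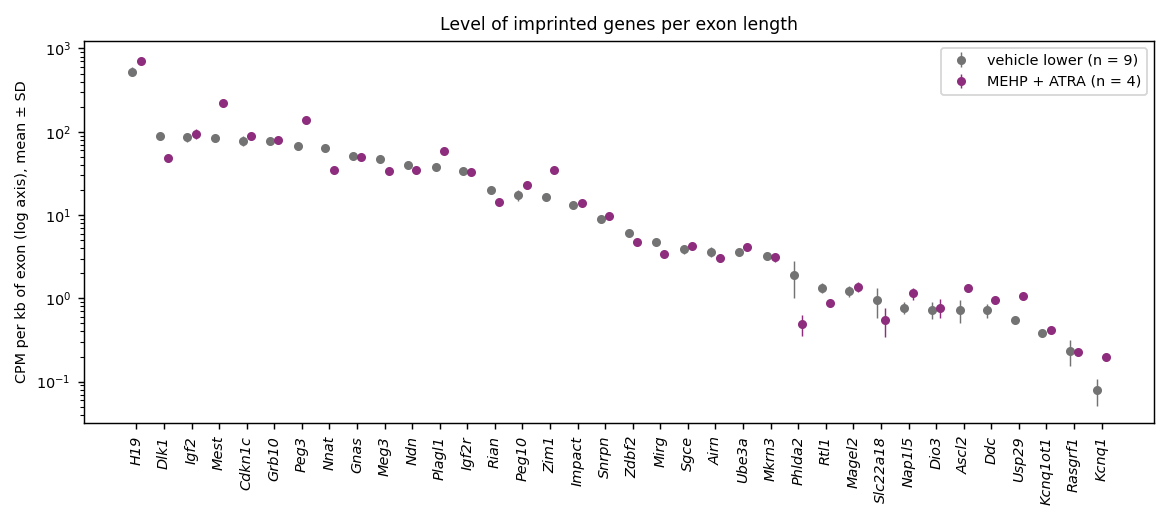
Mean level ± SD in CPM per kb of exon (y axis, log scale) of the 36 imprinted genes, ordered by level in the 9 lower-range vehicle libraries, beside the 4 MEHP + ATRA libraries. H19 stands above all others at 528 CPM per kb in vehicle, and Dlk1 and Mest, at 89.0 and 84.4 CPM per kb in vehicle, part in opposite directions.

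The Dlk1-Dio3 domain on chromosome 12 fell with ATRA. It holds the paternally expressed protein genes Dlk1, Rtl1 and Dio3 and the maternally expressed noncoding RNAs Meg3, Rian and Mirg. Of these 6 genes, 5 fell with ATRA and 5 with MEHP + ATRA, and Dio3 passed in neither. With MEHP alone 0 of the 6 passed.

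Dlk1 encodes a transmembrane relative of Notch ligands that marks progenitor cells and, in the testis, interstitial and fetal Leydig lineages (chr12:109452823-109463336, plus strand, protein-coding). Its vehicle levels ran from 447 CPM through a median of 484 to 572 CPM in the lower range. In the 5 ATRA libraries it was 311, 226, 285, 311 and 316 CPM, and in the 4 MEHP + ATRA libraries 279, 306, 244 and 257 CPM. Every library with ATRA was below every vehicle library of either range, the lowest of which was at 370 CPM. The differences were −0.80 ± 0.12 with ATRA (adjusted p = 4.72e-06) and −0.89 ± 0.13 with MEHP + ATRA (adjusted p = 1.63e-06). MEHP alone gave −0.09 ± 0.12 (adjusted p = 0.806), with levels of 315 to 577 CPM against 370 to 633 CPM in upper-range vehicle.

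Meg3, a maternally expressed noncoding RNA (chr12:109541001-109571726, plus strand, lincRNA), fell less than Dlk1 but in the same libraries. It was 712 to 899 CPM in lower-range vehicle with a median of 870. The ATRA libraries held 640, 545, 697, 649 and 715 CPM and the MEHP + ATRA libraries 617, 621, 562 and 657 CPM. One ATRA library reached the lowest of these vehicle libraries, and the MEHP + ATRA libraries all lay below it. The differences were −0.38 ± 0.08 (adjusted p = 0.000395) and −0.46 ± 0.08 (adjusted p = 5.37e-05).

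Rian, which hosts small nucleolar RNAs, and Mirg, which hosts microRNAs, lie downstream of Meg3 on the same strand. Rian was 318 to 374 CPM in lower-range vehicle, then 272, 244, 303, 255 and 267 CPM with ATRA and 236, 252, 244 and 282 CPM with MEHP + ATRA. No library with ATRA overlapped lower-range vehicle, and the difference was −0.38 ± 0.07 with ATRA and −0.46 ± 0.08 with MEHP + ATRA. Mirg went from 31.0 to 38.3 CPM in vehicle to 23.8 to 33.8 CPM with ATRA and 22.3 to 28.1 CPM with MEHP + ATRA, differences of −0.31 ± 0.08 (adjusted p = 0.00526) and −0.48 ± 0.09 (adjusted p = 8.26e-05).

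Rtl1 is a retrotransposon-derived gene needed in placenta and muscle, and it is read from the strand opposite to Meg3, Rian and Mirg. It fell from 8.56 ± 1.16 CPM (SD, n = 9) to 5.88 ± 0.66 (n = 5) and 5.59 ± 0.42 CPM (n = 4), or by 0.54 and 0.61 on the log2 scale. Because 6 microRNA hairpins lie on the opposite strand within its exons and the strand setting of the counting is not given, its reads cannot be told apart from those of the opposite transcript. Dio3, which inactivates thyroid hormone, sits at the far end of the domain. At 0.37 to 2.79 CPM over all libraries it was the least abundant of the 6, and its differences were 0.19 ± 0.28 with ATRA and 0.07 ± 0.30 with MEHP + ATRA. With MEHP alone Dio3 gave −0.67 ± 0.30 (adjusted p = 0.276), and −0.89 ± 0.25 (adjusted p = 0.035) when vehicle replicate 11 was left out.

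The fall thus took in genes expressed from either parental copy. The sequences just upstream of the RefSeq starts of Dlk1 and Meg3 (250 bases, GRCm38.p6, plus strand, 5′ to 3′) are shown because these starts belong to opposite parental copies yet their transcripts fell in the same libraries. Capitals mark the hexamer TGCCGC or its reverse complement, the motif that the imprint-protecting zinc finger protein ZFP57 binds when methylated.
Dlk1, chr12:109452573-109452822: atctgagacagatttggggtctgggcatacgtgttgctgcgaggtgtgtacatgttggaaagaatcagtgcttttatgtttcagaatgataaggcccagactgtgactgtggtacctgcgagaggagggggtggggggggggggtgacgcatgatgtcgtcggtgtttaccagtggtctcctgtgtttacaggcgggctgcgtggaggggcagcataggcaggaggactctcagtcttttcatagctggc
Meg3, chr12:109540746-109540995: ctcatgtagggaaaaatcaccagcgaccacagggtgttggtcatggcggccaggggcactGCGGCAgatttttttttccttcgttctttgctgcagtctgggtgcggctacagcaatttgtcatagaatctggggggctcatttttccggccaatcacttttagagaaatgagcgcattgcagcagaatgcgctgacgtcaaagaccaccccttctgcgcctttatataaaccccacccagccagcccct
The Meg3 window holds the hexamer once, 190 bases upstream of the start on the minus strand, and the Dlk1 window does not hold it.

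Many microRNAs of this domain are encoded within the transcripts that fell. By RefSeq position, 14 microRNA genes lie within Mirg, 3 within Rian and 1 within Meg3 on the strand of the host, and Rtl1 has 1 on its own strand. The other 6 lie opposite to Rtl1, in a transcript that these counts do not measure on its own. Their mature forms are too short for poly(A) libraries to measure, so the counts speak only of the listed host genes. Members opposite Rtl1 are shown with the seed (bases 2 to 8) in capitals, since they are fully complementary to the Rtl1 transcript where they are encoded.
miR-127-3p: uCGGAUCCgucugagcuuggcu
miR-136-5p: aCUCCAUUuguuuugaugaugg
miR-431-5p: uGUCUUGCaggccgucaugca
These 3 have different seeds. Among all mature microRNAs found within the 36 genes, 1 seed, GGUUGCC, was shared, by 2 microRNAs within Mirg (miR-453 and miR-496a-5p).

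The genes flanking the domain were also looked at. Of 16 other genes tested within 500 kb, a window chosen, like the neighbours named in it, after the values were seen, 1 rose and 0 fell with ATRA in the edgeR test, and 2 rose and 1 fell with MEHP + ATRA, beside 18.1% and 29% of all genes; with so few neighbours these counts say little about the flanks. The median difference of these 16 genes was −0.06 with ATRA and −0.26 with MEHP + ATRA. Wdr25, at the proximal end, rose by 0.86 ± 0.09 and 1.34 ± 0.10. Begain, which lies between Wdr25 and Dlk1, gave −0.09 ± 0.17 with ATRA and −0.36 ± 0.19 with MEHP + ATRA and did not pass. The 1 faller, Gm26945 (−0.52 ± 0.19), is a noncoding gene that overlaps Rian.

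**Figure D3:**
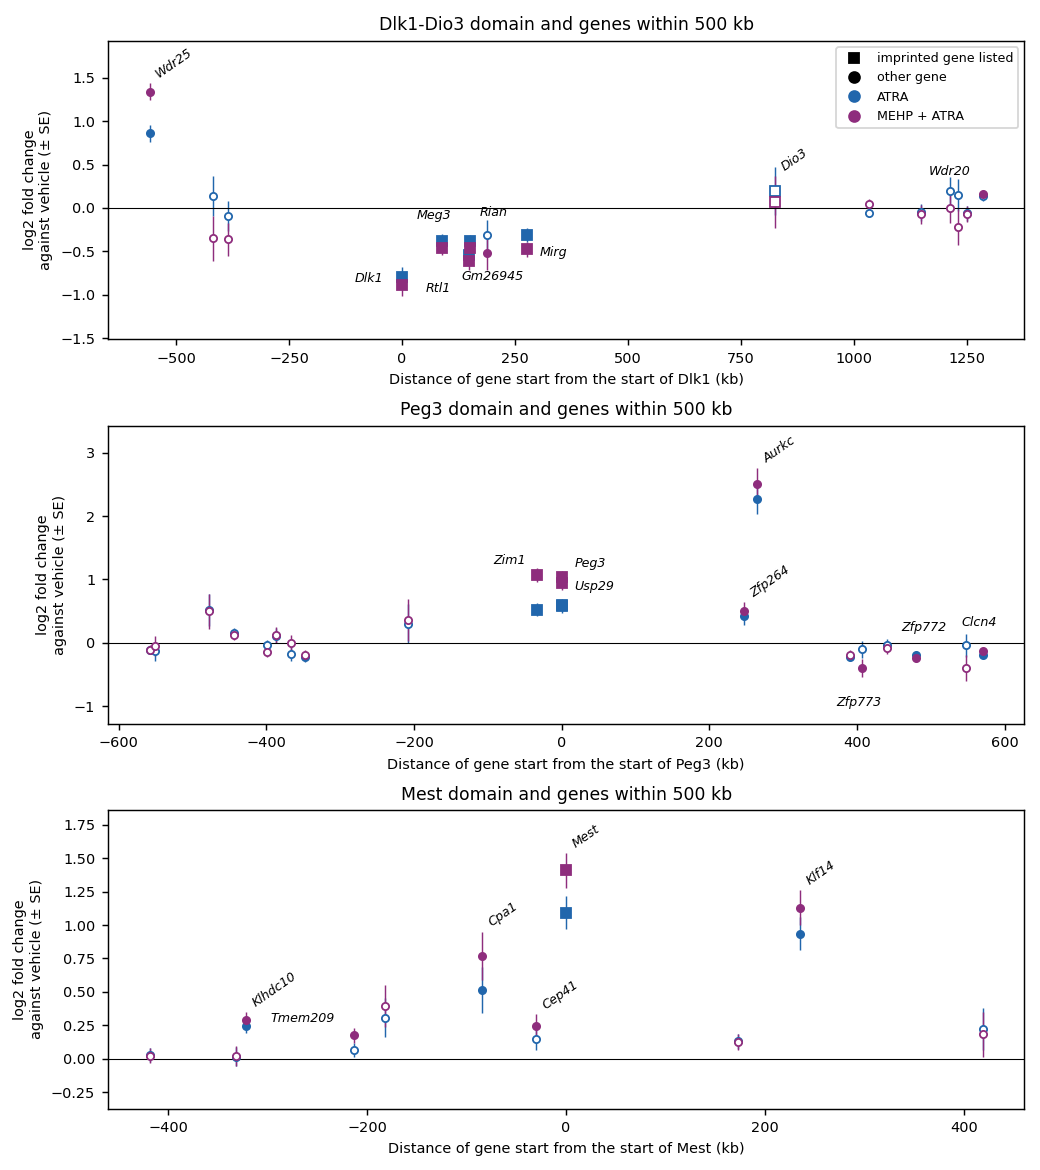
Log2 fold change against vehicle (y axis, ± SE) by distance of each gene's start from the start of Dlk1, Peg3 or Mest (x axis, kb), for ATRA and MEHP + ATRA; squares are listed imprinted genes, circles are other genes at 1 CPM or more, and filled points have an adjusted p below 0.05. The Dlk1-Dio3 genes except Dio3 lie below zero, the 3 Peg3-domain genes lie together above zero, and Mest rises along with Klf14.

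The Peg3 domain on proximal chromosome 7 rose with ATRA, and 2 of its 3 genes were higher again with MEHP + ATRA. Peg3 and Usp29 are paternally expressed and share a control region, and Zim1, a zinc finger gene, is maternally expressed beside them. All 3 rose with ATRA and with MEHP + ATRA, and Peg3 and Zim1 were also higher in MEHP + ATRA than in ATRA alone. In that last comparison 2 of the 36 members passed, both up, where 3% of all genes passed, 1.62% up and 1.38% down.

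Peg3 encodes a zinc finger protein tied to growth and to p53-dependent cell death (chr7:6703892-6730431, minus strand, protein-coding). Lower-range vehicle libraries ran from 689 CPM through a median of 916 to 1023 CPM. The ATRA libraries held 1163, 1417, 1418, 1368 and 1363 CPM and the MEHP + ATRA libraries 2102, 1683, 1857 and 1685 CPM. The 3 groups were stepwise apart without overlap. The differences were 0.59 ± 0.09 with ATRA (adjusted p = 1.1e-05), 1.04 ± 0.10 with MEHP + ATRA (adjusted p = 4.89e-10) and 0.44 ± 0.11 between the latter and ATRA (adjusted p = 0.0195). That last call was lost without ATRA replicate 1 (adjusted p = 0.0611), MEHP + ATRA replicate 1 (0.11) or MEHP + ATRA replicate 3 (0.0514). With MEHP alone the level was 793 to 1188 CPM against 719 to 1112 CPM in upper-range vehicle, a difference of 0.20 ± 0.10 (adjusted p = 0.307).

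Zim1 (chr7:6671269-6696450, minus strand) went the same way at a lower level. It was 116 to 149 CPM in lower-range vehicle with a median of 133, then 173, 194, 209, 184 and 196 CPM with ATRA and 300, 246, 289 and 287 CPM with MEHP + ATRA. Again no group overlapped the next, with differences of 0.52 ± 0.11, 1.08 ± 0.11 and, between the treated groups, 0.55 ± 0.13 (adjusted p = 0.0114). With MEHP alone Zim1 gave 0.24 ± 0.11 (adjusted p = 0.307), and 0.40 ± 0.09 (adjusted p = 0.00432) when vehicle replicate 6 was left out.

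Usp29, a deubiquitinase gene that starts head to head with Peg3, was far less abundant. Its level was 8.98 to 11.7 CPM in lower-range vehicle, 11.9, 14.0, 17.5, 16.1 and 14.7 CPM with ATRA, and 19.5, 18.1, 18.1 and 21.1 CPM with MEHP + ATRA. It rose by 0.57 ± 0.11 and 0.95 ± 0.12. Between MEHP + ATRA and ATRA it gave 0.37 ± 0.13 (adjusted p = 0.14), a difference that missed the threshold although the groups did not overlap; 7.15% of all genes were apart in that comparison. Usp29 shares 2582 exon bases with Zim3 on the opposite strand, and their reads cannot be told apart there; Zim3 stood at 0.58 CPM on average.

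An interaction of MEHP and ATRA was not detected in this domain. MEHP alone was only in the upper range, and ATRA and MEHP + ATRA were only in the lower. An interaction therefore cannot be told apart from a MEHP effect that differs between the ranges. The interaction, the change MEHP made beside ATRA less the change it made alone, was 0.24 ± 0.15 for Peg3, 0.31 ± 0.17 for Zim1 and 0.32 ± 0.18 for Usp29. None of the 36 members passed in the interaction by edgeR or by DESeq2, and 0 had an unadjusted p below 0.05. Over all genes, 0.0311% passed. Of 28 other genes tested within 500 kb of the Peg3 domain, 2 rose and 4 fell with ATRA and 4 rose and 3 fell with MEHP + ATRA. Among all genes tested, 18.1% and 29% passed in these comparisons. Aurkc, a meiotic kinase gene, rose by 2.27 ± 0.24 and 2.51 ± 0.25, and Zfp264, itself described as imprinted, by 0.42 ± 0.13 and 0.50 ± 0.14.

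Mest, which encodes an alpha/beta hydrolase-fold protein of the fetal mesoderm and is paternally expressed (chr6:30723547-30748465, plus strand), rose in all 3 treatments. Its level was 258 CPM at the lowest, 339 at the median and 373 CPM at the highest in lower-range vehicle. The ATRA libraries were close together at 681, 731, 714, 723 and 697 CPM, and the MEHP + ATRA libraries held 921, 758, 996 and 861 CPM. Every library with ATRA was above every vehicle library, by 1.09 ± 0.12 (2.13-fold, adjusted p = 5.33e-08) with ATRA and 1.41 ± 0.13 (2.66-fold, adjusted p = 4.52e-10) with MEHP + ATRA. The latter lay wholly above the ATRA libraries too, but the difference of 0.32 ± 0.15 did not pass (adjusted p = 0.356), and it did with only lower-range libraries fitted (adjusted p = 0.024).

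With MEHP alone Mest was 249 CPM at the lowest, 418 at the median and 475 CPM at the highest, against 201, 275 and 379 CPM in upper-range vehicle. The groups overlapped, with 4 of 6 MEHP libraries above all 6 vehicle libraries. The rise of 0.52 ± 0.13 passed (adjusted p = 0.0155). It was lost without vehicle replicate 10 (adjusted p = 0.052) and when only upper-range libraries were fitted (0.52 ± 0.17, adjusted p = 0.157).

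Mest shares 912 exon bases with Copg2 on the opposite strand. Copg2 was at 85.3 CPM on average and gave 0.13 ± 0.06 with ATRA and 0.13 ± 0.06 with MEHP + ATRA, neither of which passed. Of 14 other genes tested within 500 kb, 3 rose with ATRA and 5 with MEHP + ATRA, and 0 fell, beside 18.1% and 29% of all genes. Among these 14, Klf14, a maternally expressed transcription factor gene, rose by 0.93 ± 0.12 and 1.13 ± 0.13. The 250 bases before one RefSeq start of Mest are shown because the control region of this gene includes its promoter. They hold the TGCCGC motif in reverse complement, 242 and 67 bases upstream.
Mest, chr6:30737800-30738049 (GRCm38.p6, plus strand, motif in capitals): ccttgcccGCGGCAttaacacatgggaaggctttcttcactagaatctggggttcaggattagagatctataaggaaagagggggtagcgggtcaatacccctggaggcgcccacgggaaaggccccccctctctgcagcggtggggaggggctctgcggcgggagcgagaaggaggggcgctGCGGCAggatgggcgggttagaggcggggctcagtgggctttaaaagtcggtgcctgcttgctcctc
A microRNA gene lies in an intron of Mest on the same strand, and its 5p form is shown with the seed in capitals.
miR-335-5p: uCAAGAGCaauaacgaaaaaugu

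Across the members, 29 of 36 matched RefSeq starts, with 44 windows of 250 bases. TGCCGC was found on either strand in 7 of the 44 windows (15.9%), from 6 genes (Mest, Meg3, Zdbf2, Nap1l5, Zim1 and Plagl1), and in 8.7% of all 32851 windows. AGGTCA, the core hexamer that retinoic acid receptors and many other nuclear receptors bind in pairs, was found in 5 of 44 (11.4%) and in 14% of all windows. Windows of the same gene can overlap, and a match describes letters only. The median window of a member held 10 CpG dinucleotides and 56.4% G or C, beside 6 and 52.4% over all windows.

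**Figure D4:**
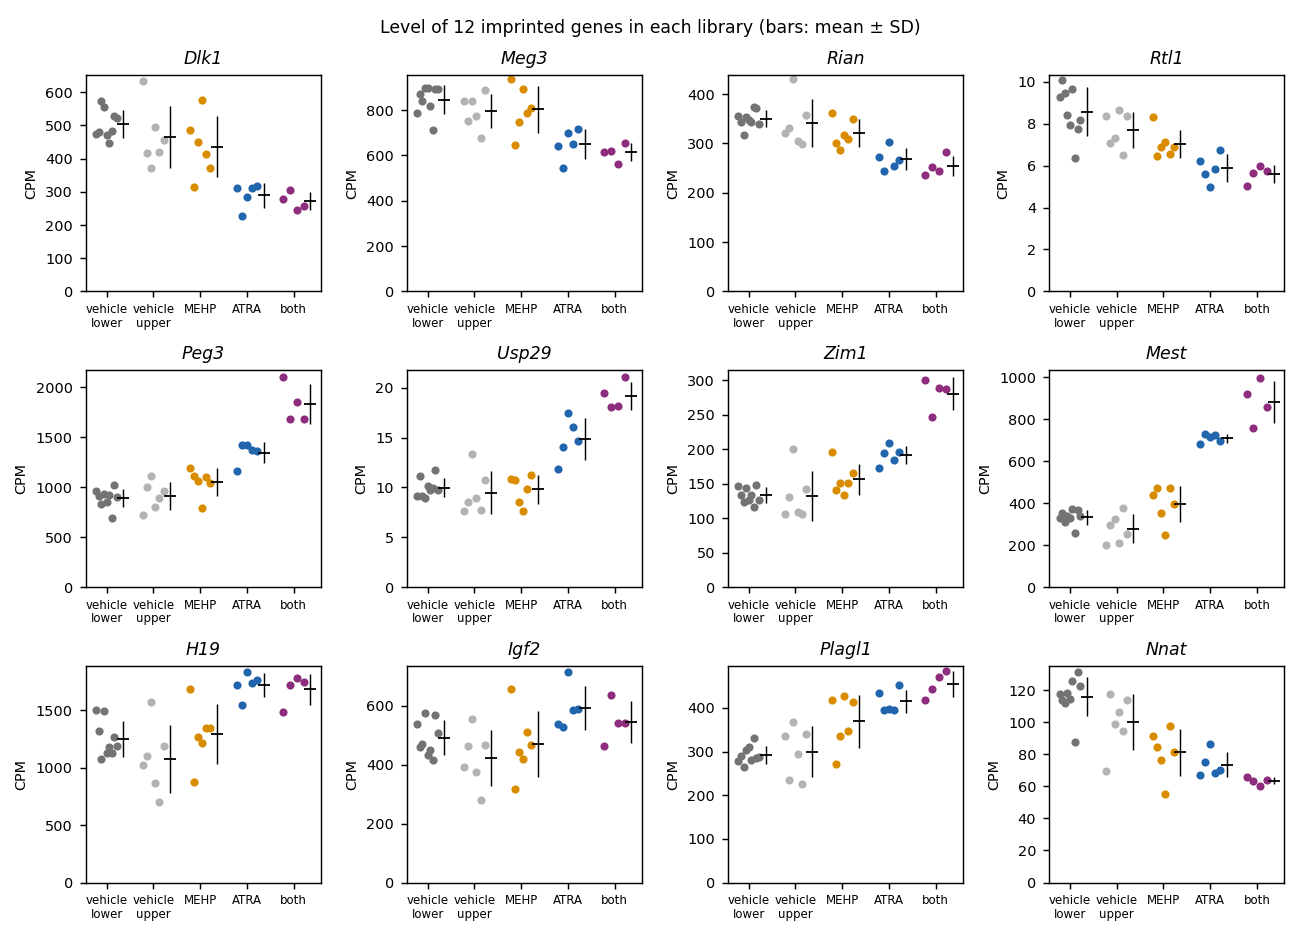
Level in CPM (y axis, from zero) of 12 imprinted genes in each of the 30 libraries by group (x axis), with mean ± SD beside the points; "both" is MEHP + ATRA. Dlk1, Meg3, Rian, Rtl1 and Nnat are lower in the libraries with ATRA, Peg3, Usp29, Zim1, Mest and Plagl1 are higher, and Igf2 overlaps across all groups.

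In the Igf2-H19 domain on distal chromosome 7, H19 rose and Igf2 did not pass. Igf2 encodes a paternally expressed fetal growth factor, and H19 (chr7:142575529-142578143, minus strand, lincRNA) is its maternally expressed neighbour, with which it shares enhancers. H19 was 1075 to 1499 CPM in lower-range vehicle with a median of 1189. The ATRA libraries held 1722, 1549, 1833, 1736 and 1768 CPM, all above those vehicle libraries, for a rise of 0.46 ± 0.13 (adjusted p = 0.00986). The MEHP + ATRA libraries held 1486, 1718, 1779 and 1747 CPM, of which the lowest fell among vehicle libraries. Their rise of 0.42 ± 0.14 (adjusted p = 0.0181) was lost without MEHP + ATRA replicate 3 or 4 (adjusted p = 0.0559 and 0.0529). With MEHP alone H19 gave 0.26 ± 0.13 (adjusted p = 0.376), and 0.405 ± 0.122 (adjusted p = 0.0437) when vehicle replicate 6 was left out.

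Igf2 was 416 to 575 CPM in lower-range vehicle, 529 to 715 CPM with ATRA and 462 to 635 CPM with MEHP + ATRA. The differences of 0.27 ± 0.13 (adjusted p = 0.174) and 0.15 ± 0.14 (adjusted p = 0.479) had the sign of those of H19, and whether the genes differed in response was not tested. With only lower-range libraries fitted, Igf2 passed with ATRA (0.27 ± 0.09, adjusted p = 0.0287). H19 is the host of miR-675, shown with its seeds in capitals because both arms come from the transcript that rose. The hairpin gene itself had 0 counts in every library, which says nothing of the mature forms.
miR-675-5p: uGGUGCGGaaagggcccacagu
miR-675-3p: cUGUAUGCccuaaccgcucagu
Igf2r, the maternally expressed receptor that clears IGF2, and Airn, the paternal antisense RNA over it, did not pass in any comparison. Airn gave −0.30 ± 0.09 with MEHP + ATRA when vehicle replicate 12 was left out, and then passed (adjusted p = 0.0122). Igf2r was 288 to 354 CPM in lower-range vehicle and 284 to 329 CPM with ATRA (−0.11 ± 0.04, adjusted p = 0.0927). That difference passed without vehicle replicate 12 (adjusted p = 0.0336) or ATRA replicate 5 (adjusted p = 0.0187).

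Plagl1, a paternally expressed zinc finger gene whose product binds other imprinted loci (chr10:13060504-13131694, plus strand), rose. It was 265 to 331 CPM in lower-range vehicle, 435, 396, 398, 396 and 453 CPM with ATRA, and 417, 443, 471 and 484 CPM with MEHP + ATRA. No treated library overlapped vehicle, and the rises were 0.51 ± 0.10 (adjusted p = 0.00019) and 0.63 ± 0.10 (adjusted p = 1.15e-05). With MEHP it gave 0.30 ± 0.10 (adjusted p = 0.094), which passed in 4 alternatives, with adjusted p from 0.00844 to 0.0297.

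Nnat, a paternally expressed gene for a small membrane protein of the endoplasmic reticulum (chr2:157560078-157562522, plus strand), fell in both groups with ATRA. Vehicle libraries of the lower range held 88.0 to 132 CPM with a median of 118. It was 67.3, 75.3, 86.6, 68.6 and 70.5 CPM with ATRA and 65.7, 63.7, 60.5 and 63.8 CPM with MEHP + ATRA. All 9 libraries with ATRA were below lower-range vehicle, by −0.66 ± 0.11 (adjusted p = 3.07e-05) and −0.87 ± 0.12 (adjusted p = 8.1e-07). Blcap, the gene in whose intron Nnat lies, gave 0.03 ± 0.04 and −0.00 ± 0.04. MEHP alone gave −0.30 ± 0.11 for Nnat (adjusted p = 0.133), which passed with no range term (−0.43 ± 0.10) and without vehicle replicate 3 (−0.38 ± 0.10).

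Zdbf2, a paternally expressed gene for a DBF-type zinc finger protein, also fell. It went from 77.8 ± 6.57 CPM (SD, n = 9) to 66.1 ± 3.56 (n = 5) and 60.7 ± 5.23 CPM (n = 4), or by 0.24 (adjusted p = 0.0113) and 0.36 (adjusted p = 0.000249) on the log2 scale. Ndn, a paternally expressed necdin gene in the region of Prader-Willi syndrome, fell with MEHP + ATRA by 0.21 on the log2 scale (adjusted p = 0.00143), from 144 to 153 CPM down to 121 to 135 CPM. With ATRA alone its difference was −0.12 ± 0.05 (adjusted p = 0.0618), although all 5 libraries lay below lower-range vehicle. That difference passed in some alternatives, among them only lower-range libraries fitted (adjusted p = 0.0179) and DESeq2 (0.0323). Of the other 4 members of that region, Magel2, Mkrn3, Snrpn and the maternally expressed ubiquitin ligase gene Ube3a, 0 passed by edgeR in any treatment. Their differences with MEHP + ATRA lay between −0.06 for Mkrn3 and 0.18 for Ube3a. Ube3a passed there in 3 alternatives, and it shares 1803 exon bases with Snhg14 on the opposite strand.

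Peg10, a retrotransposon-derived gene essential for placenta, rose with MEHP + ATRA, from 97.1 to 150 CPM in vehicle to 153, 176, 144 and 138 CPM (0.41 ± 0.11, adjusted p = 0.00653). With ATRA it gave 0.29 ± 0.11 (adjusted p = 0.0551) and passed in 9 alternatives. Sgce, which encodes epsilon-sarcoglycan and starts close to Peg10 on the other strand, gave −0.03 ± 0.08 and 0.12 ± 0.09. Nap1l5, a retrogene within an intron of Herc3, was at 1.11 to 1.77 CPM in lower-range vehicle and at 1.90, 2.61, 1.98 and 1.95 CPM with MEHP + ATRA, a rise of 0.56 ± 0.15 (adjusted p = 0.00617). ATRA alone gave 0.37 ± 0.15 for Nap1l5 (adjusted p = 0.0787), which passed in some alternatives, among them no range term (0.0291). Ddc, the aromatic amino acid decarboxylase gene next to Grb10, rose with ATRA from 3.22 ± 0.64 to 4.80 ± 0.49 CPM (0.58 ± 0.16, adjusted p = 0.00826) and gave 0.40 ± 0.17 with MEHP + ATRA (adjusted p = 0.079). The latter passed in some alternatives, among them only lower-range libraries fitted (adjusted p = 0.0237). Grb10 itself, a maternally expressed inhibitor of growth-factor signalling, stayed between 632 and 815 CPM over all 30 libraries and passed in no comparison.

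The Kcnq1 domain held genes of very different level and moved unevenly. Its growth restrictor Cdkn1c, an inhibitor of cyclin-dependent kinases, was 120 to 190 CPM in lower-range vehicle and 174 to 228 CPM with ATRA (0.30 ± 0.14, adjusted p = 0.14). With only lower-range libraries fitted, Cdkn1c passed with ATRA (adjusted p = 0.0152). The paternal noncoding RNA Kcnq1ot1, which silences the domain in cis, gave 0.06 ± 0.11 with ATRA and 0.11 ± 0.12 with MEHP + ATRA. Phlda2, a maternally expressed restrictor of placental growth, fell with MEHP + ATRA by 1.94 on the log2 scale (adjusted p = 0.00669). Its levels there were 0.475, 0.698, 0.675 and 0.367 CPM, against 0.693 to 3.37 CPM in vehicle, so 1 library overlapped. Slc22a18, beside Phlda2, gave −0.79 ± 0.34 (adjusted p = 0.0835) and passed in 1 alternative (adjusted p = 0.0263).

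Ascl2, a maternally expressed basic helix-loop-helix gene, rose with ATRA from 1.19 ± 0.37 to 2.28 ± 0.56 CPM (0.94 ± 0.24, adjusted p = 0.00449) and to 2.17 ± 0.24 CPM with MEHP + ATRA (0.87 ± 0.25, adjusted p = 0.00876). Kcnq1, a potassium channel gene, rose with MEHP + ATRA from 0.324 ± 0.115 to 0.808 ± 0.089 CPM (1.30 ± 0.34, adjusted p = 0.00398). It shares 121 exon bases with Kcnq1ot1, which averaged 34.7 CPM and lies on the opposite strand, and without a strand setting the reads at those bases cannot be told apart. Gnas, Impact and Rasgrf1 completed the members that passed in no treatment, with differences with ATRA of −0.13 ± 0.06, −0.04 ± 0.09 and 0.29 ± 0.36.

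Both parental classes held genes that rose and genes that fell. By the textbook assignment, which was not checked in these testes, 14 members are maternally and 22 paternally expressed. With ATRA, 3 maternal genes rose and 3 fell, and 5 paternal genes rose and 4 fell. With MEHP + ATRA the counts were 4 and 4 among maternal genes and 6 and 5 among paternal genes. The medians were −0.10 for maternal and 0.14 for paternal genes with ATRA, and −0.01 and 0.12 with MEHP + ATRA, and the difference between the classes was not tested.

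Between vehicle cultures of the lower and upper range, 0 of 36 members passed by edgeR and 0 by DESeq2; 4 had an unadjusted p below 0.05, as had 2607 of the 19323 genes tested, and 0.373% of all genes passed. The 4 were Igf2r (−0.12 ± 0.04), Mest (−0.26 ± 0.12), Magel2 (0.24 ± 0.10) and Nnat (−0.21 ± 0.10), as upper minus lower.

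The spread between libraries of one group differed widely among the 36. Pooled over the 5 sets of libraries (vehicle of each range and 3 treatments), the SD of log2 CPM had a median of 0.20 over the members and 0.18 over all genes tested. Grb10 (0.073), Igf2r (0.075) and Ndn (0.077) were among the steadiest genes of the whole table, at percentiles 3.7, 4.3 and 5.1. Phlda2 (0.82), Rasgrf1 (0.72) and Slc22a18 (0.56) were the most variable, all at low levels. Several abundant members were uneven between libraries of vehicle and MEHP in the upper range: H19 had an SD of 0.40 and 0.31 there, against 0.17 in lower-range vehicle, 0.09 with ATRA and 0.12 with MEHP + ATRA. Mest was likewise most uneven in those 2 sets, at 0.36 and 0.35, against 0.16, 0.04 and 0.17 in the others.

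Libraries of one group that held more H19 also held more Igf2. Over the 30 libraries, after taking out the means of the 5 sets, Pearson's r between H19 and Igf2 was 0.897 and Spearman's rho 0.853 (permutation p = 1e-05 for both, the smallest that 100000 resamples can give; adjusted p = 0.0001 over 20 pairs). Without the 2 libraries farthest from the median it was 0.858, and within the lower and upper ranges 0.698 (n = 18) and 0.966 (n = 12). Of all genes tested, 99.99% had a lower r to H19 than Igf2 had. The libraries share scaling to a fixed total, so high genes are not free of each other. The permutations for this and the other pairs treated libraries as independent, although those sharing a first title number tended to deviate together. Their p-values may therefore be too small. With a term for that number, r between H19 and Igf2 was 0.919.

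Neighbours in the other domains were coupled less evenly. Peg3 and Zim1 had r = 0.759 (rho 0.762, adjusted permutation p = 0.0001), and 0.836 and 0.757 within the ranges. Peg3 and Usp29 reached 0.601 (rho 0.501), Dlk1 and Meg3 0.573 (rho 0.465), and Meg3 and Rian 0.493 (rho 0.577), with adjusted permutation p of 0.00185, 0.00436 and 0.0145. Within the lower range Peg3 with Usp29 was at 0.341 and Meg3 with Rian at 0.305. Of all genes tested, 99.1% had a lower r to Peg3 than Zim1 had, and 94.5% a lower r than Usp29. The share was 95.2% for Dlk1 with Meg3 and 96.2% for Meg3 with Rian. Rian and Mirg, read from one strand of the same domain, had r = 0.085 (adjusted permutation p = 0.694). Negative values were found for Peg10 with Sgce (r = −0.446, rho −0.505) and Cdkn1c with Slc22a18 (r = −0.433, rho −0.558), at adjusted permutation p of 0.0272 and 0.028. The latter was lost in 1 alternative (adjusted permutation p = 0.0518). Of all genes tested, 9.65% had a lower r to Peg10 than Sgce had, and 14.3% a lower r to Cdkn1c than Slc22a18 had.

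Of the 20 pairs examined, 11 had an adjusted permutation p below 0.05 for Pearson's r. Snrpn and Ube3a (r = 0.49, rho 0.434) stood at 0.44 and 0.561 within the ranges and at 0.387 without the 2 farthest libraries. Of all genes tested, 89.3% had a lower r to Snrpn than Ube3a had. Other pairs rested on few libraries. Igf2r with Airn went from 0.53 (rho 0.405) to 0.298 without the 2 farthest libraries. Plagl1 with H19 (r = 0.634, rho 0.394) and with Igf2 (r = 0.476, rho 0.258) held in the upper range, at 0.738 and 0.654, and not in the lower, at 0.148 and −0.168. For Plagl1 the relation therefore did not hold within both ranges.

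**Figure D5:**
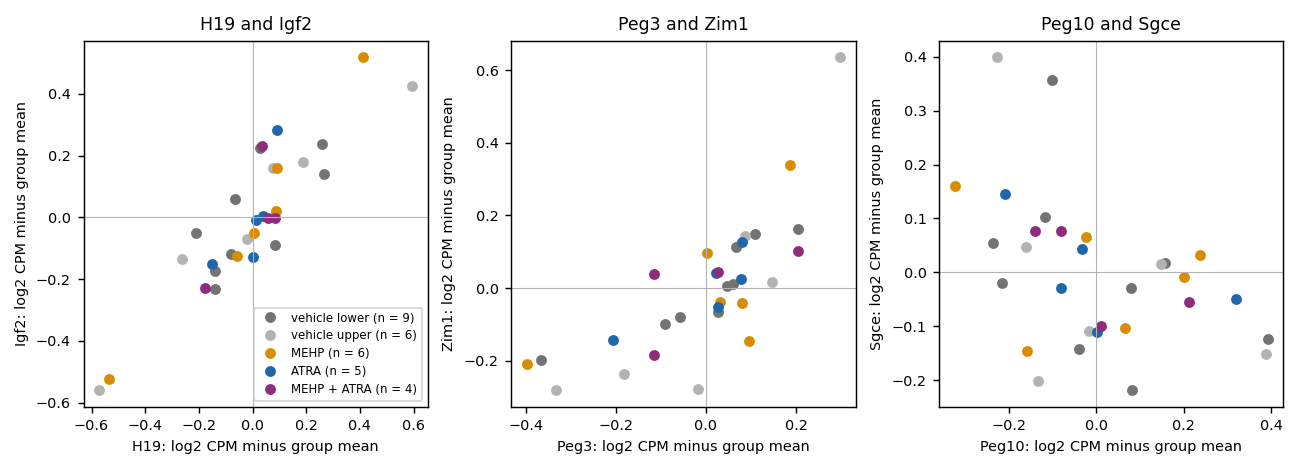
Log2 CPM minus the mean of the library's own set for H19 against Igf2, Peg3 against Zim1, and Peg10 against Sgce; each point is 1 of 30 libraries, coloured by set. H19 and Igf2 lie close to a line (r = 0.897), Peg3 and Zim1 rise together (r = 0.759), and Peg10 and Sgce run weakly against each other (r = −0.446).

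Genes that protect or erase imprints form a second list. Of these 27 genes, all tested, 1 rose and 2 fell with ATRA, 2 rose and 2 fell with MEHP + ATRA, beside 18.1% and 29% of all genes. With MEHP 0 passed by edgeR, where 2 had an unadjusted p below 0.05. The ZFP57 gene, whose product keeps methylation at imprinted control regions, fell with ATRA: Zfp57 went from 72.7 to 55.1 CPM (−0.40 ± 0.07, adjusted p = 2.55e-05), and to 62.5 CPM with MEHP + ATRA (−0.22 ± 0.07, adjusted p = 0.0179). Zfp445, which acts with it, rose by 0.16 ± 0.06 and 0.24 ± 0.06. Uhrf1, a cofactor of maintenance methylation, fell with ATRA by 0.20 on the log2 scale, and its paralog Uhrf2 rose with MEHP + ATRA by 0.15 ± 0.05. Dppa3, a germ cell factor that guards maternal methylation in the zygote, fell with MEHP + ATRA from 69.2 to 32.7 CPM (−1.08 ± 0.39, adjusted p = 0.0352). Zfp57 and Dppa3 are also expressed in germ cells. Of 12 germ cell markers, 1 rose and 1 fell with ATRA, with 10 not passing. With MEHP + ATRA 2 rose and 2 fell, with 8 not passing. Among them Dppa4 fell with both ATRA treatments and Rhox6 rose. Whether the differences in Zfp57 and Dppa3 arose in germ cells was not tested.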

How the data were processed

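Each library's file holds raw counts per gene as deposited by the authors, laid out as featureCounts does, per the file headers. The submitters' processing notes name bcl2fastq 2.20, Trimmomatic 0.36, STAR 2.5.2b, featureCounts (Subread 1.5.2) and DESeq2. Build, annotation release and strand setting: not given in the sources used here. Coordinates are those of the files, on a GRCm38 frame. RNA was poly(A)-enriched, per the labels' protocols. A name list gave symbols for 99.3% of gene identifiers.

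Counts were fitted with edgeR 4.0.16 (R 4.3.3): filterByExpr with a minimum count of 10, TMM scaling, and 1 quasi-likelihood model over 30 libraries with group and range, leaving 25 residual degrees of freedom. The biological coefficient of variation was 12.7%. F tests were adjusted by Benjamini-Hochberg over 19323 genes for each of 6 contrasts, and SE was derived from F. In counts simulated for ATRA against vehicle (19321 genes), 61% of 1.5-fold and 84% of 2-fold changes were recovered. No pair of libraries of one group agreed within sampling noise (chi-square per degree of freedom at least 2.64 over 82 pairs). Vehicle replicate 6 was at 16.1 to 37.5 against the other upper-range vehicle libraries, and without it 1151 genes passed with MEHP, against 912. In lower-range vehicle the largest value was 30.8, between replicates 12 and 13.

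All 36 members are named, and of related lists the genes called with the smallest p, up to 6 per contrast. Members, lists and pairs were chosen with earlier results of these data known. Alternatives were RLE scaling, no count filter, DESeq2 1.42.0, no range term, a replicate block, own-range libraries only and leaving out each library. Sequences are from RefSeq (GRCm38.p6).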

Additional observations from a re-analysis of the deposited data

Results flagged for a closer look

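A library was picked out where it stood apart from the rest of its set by Dixon's test, which chance does in about 1 of 20 sets. Of 180 sets looked at (36 genes in 5 sets of libraries), 12 held such a library. Vehicle replicate 12 was the lowest of the lower-range vehicle libraries for 3 genes: Airn at 8.65 CPM (others 11.98 to 14.6), Magel2 at 3.74 CPM (others 5.35 to 6.49) and Nnat at 88.0 CPM (others 112 to 132). For Peg3, MEHP replicate 4 was low at 793 CPM (others 1046 to 1188) and ATRA replicate 1 was low at 1163 CPM (others 1363 to 1418). Igf2r was high in MEHP + ATRA replicate 2 at 328 CPM (others 299 to 301), and Nap1l5 was high in the same library at 2.61 CPM (others 1.90 to 1.98) and in ATRA replicate 3 at 2.30 CPM (others 1.72 to 1.75). Rtl1 was high in MEHP replicate 1 at 8.31 CPM (others 6.46 to 7.14). Sgce was high in vehicle replicate 6 at 53.0 CPM (others 34.9 to 41.5). Kcnq1 was high in vehicle replicate 2 at 0.578 CPM (others 0.162 to 0.353) and low in MEHP + ATRA replicate 3 at 0.675 CPM (others 0.838 to 0.863).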

How the results depend on the processing

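Of the members' tests under every alternative, 7582 kept their side of the threshold and their direction, 42 passed only under the alternative, 7 were lost and 0 reversed. Members called with ATRA kept their call in 540 of 540 cases, with MEHP + ATRA in 682 of 684, between MEHP + ATRA and ATRA in 69 of 72, and with MEHP in 34 of 36. With no range term, 2229 genes and 3 members (Mest, Plagl1, Nnat) passed with MEHP and 10 genes in the interaction. With only libraries of the treatment's own range, 439 genes and 0 members passed with MEHP, against 912 genes in the main fit. Between MEHP + ATRA and ATRA, 967 genes and 4 members passed, against 579 genes. ATRA and MEHP + ATRA against vehicle gave 4224 and 6499 genes, against 3494 and 5595. These fits take the spread from the treatment's own range alone, where the main fit pools both ranges. DESeq2 gave 12 genes in the interaction and 338 between the ranges in vehicle, and no count filter gave 19 in the latter, against 6 and 72. Leaving out 1 library gave 668 to 1151 genes and 0 to 4 members with MEHP, 340 to 689 genes and 1 to 2 members between MEHP + ATRA and ATRA, 3 to 8 genes in the interaction and 10 to 169 genes between the ranges. The extremes for members with MEHP came without vehicle replicate 10 and vehicle replicate 6, and the lowest count between MEHP + ATRA and ATRA came without MEHP + ATRA replicate 1. Between the ranges the lowest and highest counts came without vehicle replicates 14 and 4.

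A replicate block on the first title number gave 1227 genes and 2 members (Mest, Plagl1) with MEHP, 3848 genes and 15 members with ATRA, 6021 genes and 22 members with MEHP + ATRA (with Airn, adjusted p = 0.0311, Slc22a18, 0.0263, and Ube3a, 0.0397, added), and 2 genes in the interaction. Libraries sharing a number deviated together in 8 of 9 numbers (r from 0.088 to 0.756), short of the rule that every pairing pass 0.1, and 19 of 30 libraries correlated best with their own number; the labels do not say what the number marks. Within-group pairs past the threshold numbered 11 with RLE scaling and 12 with the block, but not the same pairs. With the block Cdkn1c with Slc22a18 (adjusted permutation p = 0.0518), H19 with Plagl1 (0.0598) and Igf2 with Plagl1 (0.168) were lost, and Meg3 with Mirg (r from 0.294 to 0.771), Dlk1 with Rtl1 (0.327 to 0.517), Ndn with Snrpn (−0.184 to −0.532) and Kcnq1 with Kcnq1ot1 were gained. The correlation of Kcnq1 and Kcnq1ot1 changed sign to 0.417 with the block, and that of Igf2 and Plagl1 to −0.168 within the lower range.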

Other observations

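Beyond the 36 genes, 50 further genes described as imprinted in mouse were in the files and 44 were tested. ATRA raised 10 and lowered 5, MEHP + ATRA raised 10 and lowered 7, and MEHP raised 2 and lowered 1, as counted by edgeR with Benjamini-Hochberg adjustment over all genes. The shares of all genes tested that passed were 18.1%, 29% and 4.72% in that order. Tspan32, a tetraspanin gene, moved most. It went from 2.39 CPM in lower-range vehicle to 9.15 CPM with ATRA (1.93 ± 0.16) and 19.99 CPM with MEHP + ATRA (3.06 ± 0.17), a difference of 1.13 ± 0.19 between them (adjusted p = 0.000324), and it rose with MEHP from 2.33 to 7.55 CPM (1.68 ± 0.18, adjusted p = 1.72e-07). It was the 1 gene of this list that passed in all 4 comparisons of treatments.

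Dcn, a small proteoglycan gene, rose to the same mean in both groups with ATRA, from 216 to 444 CPM (1.04 ± 0.12 and 1.04 ± 0.13). Ano1, a chloride channel gene, rose by 0.65 ± 0.10 and 0.49 ± 0.10. Osbpl5, a lipid transfer gene at the far end of the Kcnq1 domain, fell with every treatment, at −0.29 ± 0.07, −0.31 ± 0.07 and −0.49 ± 0.08 in the MEHP, ATRA and MEHP + ATRA comparisons. Pon3 fell from 12.4 CPM to 9.30 and 9.44 CPM. Axl, a receptor tyrosine kinase gene, rose with MEHP (0.21 ± 0.06, adjusted p = 0.0196) and with MEHP + ATRA (0.23 ± 0.06).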
